A study of Homo sapiens with 10 samples.

Results

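Lymphotoxin beta (LTB) and 9 further genes of the tumour necrosis factor (TNF) system were followed in head and neck cancer cells given the microRNA miR-7. The set holds 4 further ligands (TNF, TNFSF9, TNFSF10 and TNFSF15), 3 receptors (LTBR, TNFRSF1A and TNFRSF12A) and 2 genes named for their induction by TNF (TNFAIP2 and TNFAIP3). Members were taken by gene symbol, and LTB was chosen for its fall in HN5, so that its HN5 values are given as a description with no test. All 10 members had a named probe in both cell lines, with 12 probes each, and they stand among 18665 named genes on the HN5 arrays and 20046 on the FaDu arrays.

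HN5 and FaDu are human lines derived from squamous cell carcinoma of the head and neck. Total RNA came from cells lysed 24 h after Lipofectamine transfection with the miR-7 precursor or with miR-NC, a negative-control precursor, and the labels name no other treatment. There were 2 miR-7 and 2 miR-NC arrays of HN5, and FaDu had 6 arrays, 3 labelled miR-7 and the rest, also 3, miR-NC, all biological replicates. Each line was measured on its own type of Illumina BeadChip, on which a spot gives an intensity per probe and a detection p, the chance of that intensity from background probes, so levels were compared neither between lines nor between probes. As cultured bulk cells were lysed, fewer cells with a transcript and less of it per cell cannot be told apart.

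Median intensity was 114.5 to 158.5 on the HN5 arrays and 114.4 to 148.9 on the FaDu arrays, and 14158 to 14726 and 16034 to 17424 probes were detected at a detection p under 0.01. The arrays were background-corrected and quantile-normalized within a line, and 9549 genes in HN5 and 9997 in FaDu were tested, each detected throughout 1 group or both. HN5 miR-7 replicate 2 stood apart: it correlated at 0.904 to 0.923 with the other HN5 arrays, which correlated at 0.970 to 0.986 with each other. EGFR, the receptor that miR-7 is known to repress, averaged 12.08 on the log2 scale with miR-7 and 13.75 with miR-NC in HN5, a log2 fold change of -1.67. In FaDu it averaged 9.52 on the arrays labelled miR-7 and 7.94 on those labelled miR-NC, a log2 fold change of 1.57. The direction that the FaDu labels give is thus opposite to the one the study describes, and every signed FaDu value below goes by the labels. All 7 named squamous epithelial markers of a list of 10 were measured in each line. Of 11 named leukocyte markers, 10 in HN5 and 9 in FaDu were detected on no array, the pan-leukocyte gene PTPRC and the T cell CD3 chains among them.

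TNF family ligands are trimers, mostly anchored in the membrane, that bind receptors of the TNF receptor family on the same or neighbouring cells. LTB anchors soluble lymphotoxin alpha at the cell surface, and the complex they form binds LTBR, which signals mainly through the kinase MAP3K14 to the NF-κB subunit RELB. TNF acts through TNFRSF1A on nearly all cells, leads to nuclear RELA and NFKB1, and so induces TNFAIP3, which shuts the pathway off, and TNFAIP2. In squamous epithelium and its tumours these receptors are common, while LTB and TNF themselves are best known from lymphocytes and macrophages.

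The cells were given a miR-7 precursor, of which no sequence was stated. Mature miR-7 as listed in RefSeq is shown because its seed is the stretch that pairs with target mRNAs. RefSeq (GRCh38.p14) lists the same mature sequence for MIR7-1 at chr9:83969811-83969834 on the minus strand and for MIR7-3 at chr19:4770700-4770723 on the plus strand, and the capitals mark bases 2 to 8, the seed.
hsa-miR-7-5p: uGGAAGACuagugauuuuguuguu

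The LTB and TNFAIP3 promoters are shown because they were the members whose promoter held a match to the NF-κB consensus decamer (2 G, 2 purines, 2 bases of any kind, 2 pyrimidines, 2 C, on either strand). RefSeq promoters of 9 members were found, TNFRSF12A being the one without an entry, and the 250 bases before each start were searched. LTB had 1 match, 86 bases before its start, and TNFAIP3 had 2, at 67 and 55 bases before the transcript start in that table, which lies downstream of the first base of the annotated TNFAIP3 gene, so that the stretch shown is inside the gene's span. Of 35116 promoters searched alike, 12.3% held at least 1 match and 2.03% at least 2, and the very decamer that LTB and TNFAIP3 share occurred in 0.179% on either strand. The LTB stretch lies at chr6:31582426-31582675 on the minus strand and the TNFAIP3 stretch at chr6:137867188-137867217 on the plus strand, with the matches in capitals. A match is a run of letters and not a measured binding site.
LTB: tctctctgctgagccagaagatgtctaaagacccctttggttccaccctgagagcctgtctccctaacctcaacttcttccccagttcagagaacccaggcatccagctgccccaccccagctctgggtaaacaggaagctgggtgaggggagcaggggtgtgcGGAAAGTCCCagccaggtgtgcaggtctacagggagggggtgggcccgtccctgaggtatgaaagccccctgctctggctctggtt
TNFAIP3: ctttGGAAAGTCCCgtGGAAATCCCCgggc

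LTB was measured by 2 probes, and only ILMN_2376205 rose above background anywhere. In HN5 this probe had deposited intensities of 148.5 and 109.9 with miR-7, against 317.8 and 242.1 with miR-NC. Its detection p was 0.107 and 0.274 on the miR-7 arrays and 0.00264 on each miR-NC array, so that LTB was detected on both miR-NC arrays and on neither miR-7 array. After normalization LTB stood at 5.37 and 5.05 on the log2 scale with miR-7 and at 7.13 and 7.31 with miR-NC, with no overlap between the groups. The measured log2 fold change of LTB was -2.01. Because the miR-7 arrays were at background, LTB can be given only as at least 1.73-fold lower with miR-7, set against the dimmest detected signal of each miR-7 array, and this limit holds for the background correction used here alone. The size depended on how background was treated: the log2 fold change of LTB was -0.92 with no background correction, -1.37 with an offset of 50, and -0.52 on the authors' own log2 values.

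The second LTB probe, ILMN_2376204, read 143.2 and 94.8 with miR-7 and 200.2 and 141.5 with miR-NC in HN5. None of these passed detection, the lowest detection p being 0.029, on miR-NC replicate 1, so the second probe gives no level of LTB.

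In FaDu, LTB was at background on all 6 arrays with both probes. Probe ILMN_2376205 read 109.0, 114.6 and 112.8 on the arrays labelled miR-7 and 103.4, 116.4 and 128.5 on those labelled miR-NC, with detection p between 0.351 and 0.626. LTB could therefore not be tested in FaDu, and a change of LTB was not detectable there.

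TNF itself, which lies 2.2 kb from LTB on chromosome 6 (TNF at chr6:31575565-31578336 and LTB at chr6:31580558-31582425, GRCh38.p14), was detected on no array of either line. In HN5 TNF read 120.8 and 92.6 with miR-7 and 201.9 and 132.5 with miR-NC. Its lowest detection p was 0.0277 in HN5 and 0.569 in FaDu, so no fold change is given for TNF.

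**Figure D1:**
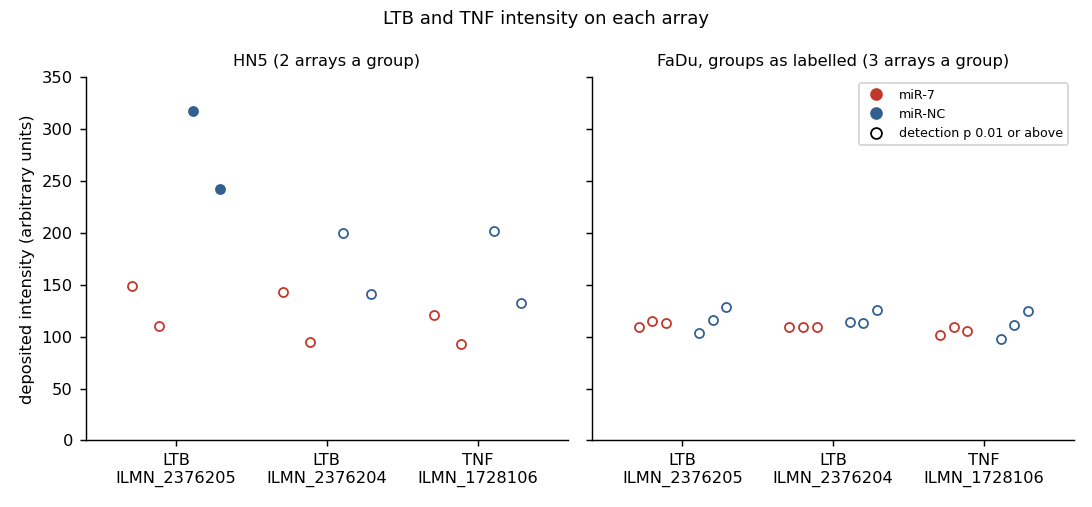
Deposited intensity (arbitrary units) of the 2 LTB probes and the TNF probe on each HN5 and FaDu array, miR-7 (red) left of miR-NC (blue), filled where the detection p was under 0.01. Only LTB probe ILMN_2376205 on the HN5 miR-NC arrays, at 317.8 and 242.1, is filled, and all FaDu values lie between 98.1 and 128.5.

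Of the 3 other ligands, TNFSF10 gave the most divided values. TNFSF10, or TRAIL, is a ligand that triggers apoptosis through the death receptors TNFRSF10A and TNFRSF10B. In HN5 its intensities were 7150.6 and 130.2 with miR-7, against 5046.5 and 2952.3 with miR-NC. On miR-7 replicate 1 TNFSF10 was thus brighter than on either miR-NC array, and on miR-7 replicate 2 it was not above background, with a detection p of 0.0632. Normalized TNFSF10 levels were 12.72 and 5.60 with miR-7 and 11.88 and 11.61 with miR-NC, and the groups overlapped.

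The TNFSF10 log2 fold change in HN5 was -2.58 with a standard error of 2.15, and the adjusted p was 0.604 (limma). Without miR-7 replicate 1 it was -6.14, measured against background signal, and without miR-7 replicate 2 it was 0.97, so its direction turned on which array was used. Each of these values rests on a lone miR-7 array. TNFSF10 was at least 78.8-fold brighter on miR-7 replicate 1 than the dimmest detected signal of miR-7 replicate 2, while between the miR-NC arrays its level was lower on replicate 2 by a log2 difference of -0.27.

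TNFSF10 was not alone on that array. In all, 258 genes were over 4-fold lower on miR-7 replicate 2 than on miR-7 replicate 1 and 146 of these were not detected there, while 3 genes were over 4-fold higher and 3 were over 4-fold apart between the miR-NC arrays. Among the genes of the TNF lists below, only TNFSF10 and CFLAR, the inhibitor of death receptor caspases, were among the 258.

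**Figure D2:**
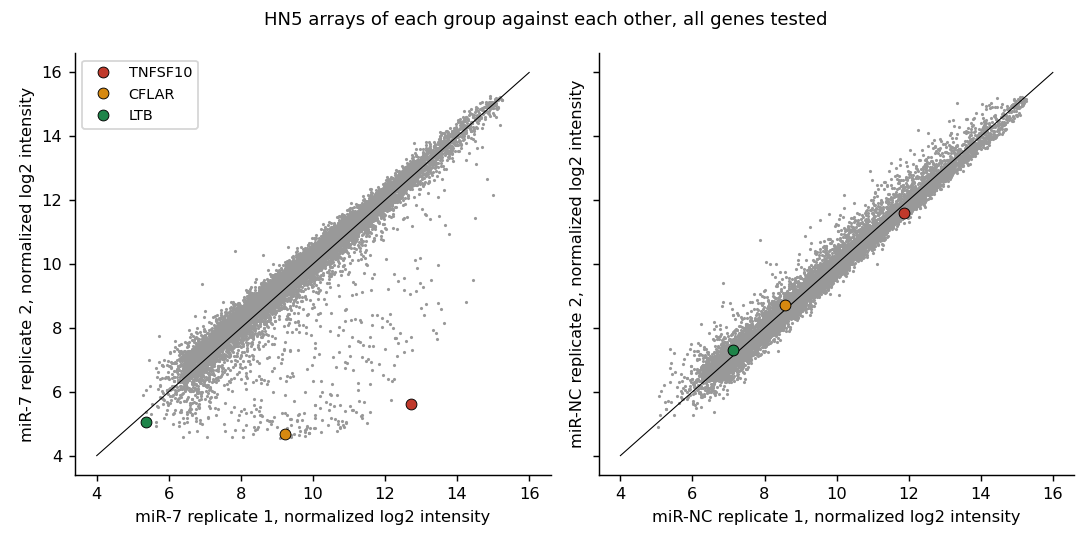
Normalized log2 intensity of the 9549 genes tested in HN5 on replicate 2 (vertical) against replicate 1 (horizontal), for miR-7 on the left and miR-NC on the right, with the line of equal values. TNFSF10 (red) and CFLAR (orange) lie far below the line with miR-7, TNFSF10 at 5.60 on replicate 2, and close to it with miR-NC, and LTB (green) lies near the line in both groups.

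In FaDu, TNFSF10 levels were close together. TNFSF10 stood at 7.60, 7.66 and 7.48 on the arrays labelled miR-7 and at 7.52, 7.25 and 7.33 on those labelled miR-NC, which overlapped. The log2 fold change was 0.22 with a standard error of 0.0909 (adjusted p = 0.0886, limma). Without the array labelled miR-NC replicate 1, TNFSF10 passed, at 0.29 (adjusted p = 0.0325).

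TNFSF9, the ligand of the T cell costimulatory receptor TNFRSF9 (4-1BB), was detected on every HN5 array and was near background in FaDu. In HN5 TNFSF9 stood at 8.85 and 9.29 with miR-7 and at 8.78 and 8.96 with miR-NC, a log2 fold change of 0.20 with a standard error of 0.226 (adjusted p = 0.704). In FaDu it stood at 5.54, 5.55 and 5.47 on the arrays labelled miR-7, of which 1 of 3 passed detection, and at 5.89, 5.90 and 5.80 on those labelled miR-NC, which all passed. The measured log2 fold change of TNFSF9 was -0.34 with a standard error of 0.0675. TNFSF9 entered the FaDu test only through the arrays labelled miR-NC, where it was higher, so its call at an adjusted p under 0.05 is not read as a result. That call was lost with no background correction (-0.12, adjusted p = 0.0926, limma) and with the authors' log2 values (-0.07, adjusted p = 0.188). It was also lost with median scaling (-0.37, adjusted p = 0.0537) and with a mean-variance trend (adjusted p = 0.0594).

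TNFSF15, a ligand of the death-domain receptor TNFRSF25, was measured by 2 probes, of which ILMN_2106380 was detected on every array of both lines and ILMN_1759501 on none. In HN5, TNFSF15 by the detected probe stood at 7.34 and 7.60 with miR-7, above the 6.79 and 7.21 with miR-NC. Its log2 fold change there was 0.47 with a standard error of 0.231 (adjusted p = 0.444). In FaDu, TNFSF15 stood at 6.99, 7.62 and 7.20 on the arrays labelled miR-7, which overlapped the 7.65, 7.27 and 7.76 on those labelled miR-NC. The FaDu log2 fold change was -0.29 with a standard error of 0.176 (adjusted p = 0.222). TNFSF15 passed the test in neither line.

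The 3 receptors were bright in both lines. LTBR, which binds the LTB complex, and TNFRSF1A, the main TNF receptor, lie 33.1 kb apart on chromosome 12 (LTBR at chr12:6375160-6391566, TNFRSF1A at chr12:6328771-6342076), and TNFRSF12A, the receptor of the cytokine TNFSF12 (TWEAK), is on chromosome 16. All 3 were lower on the FaDu arrays labelled miR-7, and none passed the test in HN5.

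LTBR in FaDu stood at 10.55, 10.52 and 10.41 on the arrays labelled miR-7 and at 11.05, 11.10 and 10.88 on those labelled miR-NC. The groups did not overlap, and LTBR was lower with a log2 fold change of -0.51 and a standard error of 0.0821 (1.43-fold, adjusted p = 0.00145, limma). In HN5 LTBR stood at 11.94 and 12.32 with miR-7 and at 12.07 and 11.99 with miR-NC, which overlapped, with a log2 fold change of 0.10 and a standard error of 0.21 (adjusted p = 0.847).

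TNFRSF1A in FaDu stood at 10.10, 10.12 and 10.07 on the arrays labelled miR-7 and at 10.63, 10.63 and 10.48 on those labelled miR-NC. It was lower with no overlap, by a log2 fold change of -0.48 with a standard error of 0.0716 (1.40-fold, adjusted p = 0.000996, limma). In HN5 TNFRSF1A stood at 11.97 and 12.20 with miR-7 and at 11.97 and 11.89 with miR-NC. The HN5 groups overlapped and the log2 fold change was 0.15 with a standard error of 0.191 (adjusted p = 0.736).

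TNFRSF12A was lower in FaDu by the widest margin of the 3 receptors. It stood at 10.86, 11.11 and 10.91 on the arrays labelled miR-7 and at 11.50, 11.57 and 11.55 on those labelled miR-NC, with no overlap. The log2 fold change of TNFRSF12A was -0.58 with a standard error of 0.082 (adjusted p = 0.000754, limma). In HN5 TNFRSF12A stood at 13.24 and 12.94 with miR-7 and at 12.74 and 13.08 with miR-NC, overlapping groups with a log2 fold change of 0.18 and a standard error of 0.222 (adjusted p = 0.734).

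Of the TNF-induced members, TNFAIP2, a gene first found by its induction by TNF in endothelial cells, had the largest FaDu change of the members. Its deposited intensities were 549.5, 565.2 and 523.5 on the arrays labelled miR-7 and 256.0, 315.5 and 319.2 on those labelled miR-NC. Normalized, TNFAIP2 averaged 8.89 ± 0.0917 on the arrays labelled miR-7 and 7.55 ± 0.227 on those labelled miR-NC (SD). TNFAIP2 was higher on every array labelled miR-7, with a log2 fold change of 1.34 and a standard error of 0.115 (2.53-fold, adjusted p = 5.45e-05, limma), the 110th highest of 9997 genes. In HN5 TNFAIP2 was detected only on miR-7 replicate 2, with intensities of 165.0 and 168.6 with miR-7 and 209.1 and 128.4 with miR-NC, and was not tested.

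TNFAIP3, or A20, is the ubiquitin-editing enzyme that ends NF-κB signalling after TNF, and its promoter holds the pair of decamers printed above. In HN5 its intensities were 1518.8 and 1145.2 with miR-7, against 2872.2 and 1648.8 with miR-NC. Normalized TNFAIP3 stood at 10.42 and 10.51 with miR-7, below the 11.03 and 10.74 with miR-NC. The log2 fold change of -0.42 had a standard error of 0.198 and did not pass the test (adjusted p = 0.437). In FaDu TNFAIP3 stood at 8.10, 7.90 and 7.85 on the arrays labelled miR-7 and at 7.77, 7.86 and 7.85 on those labelled miR-NC, overlapping groups with a log2 fold change of 0.12 and a standard error of 0.0833 (adjusted p = 0.274).

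**Figure D3:**
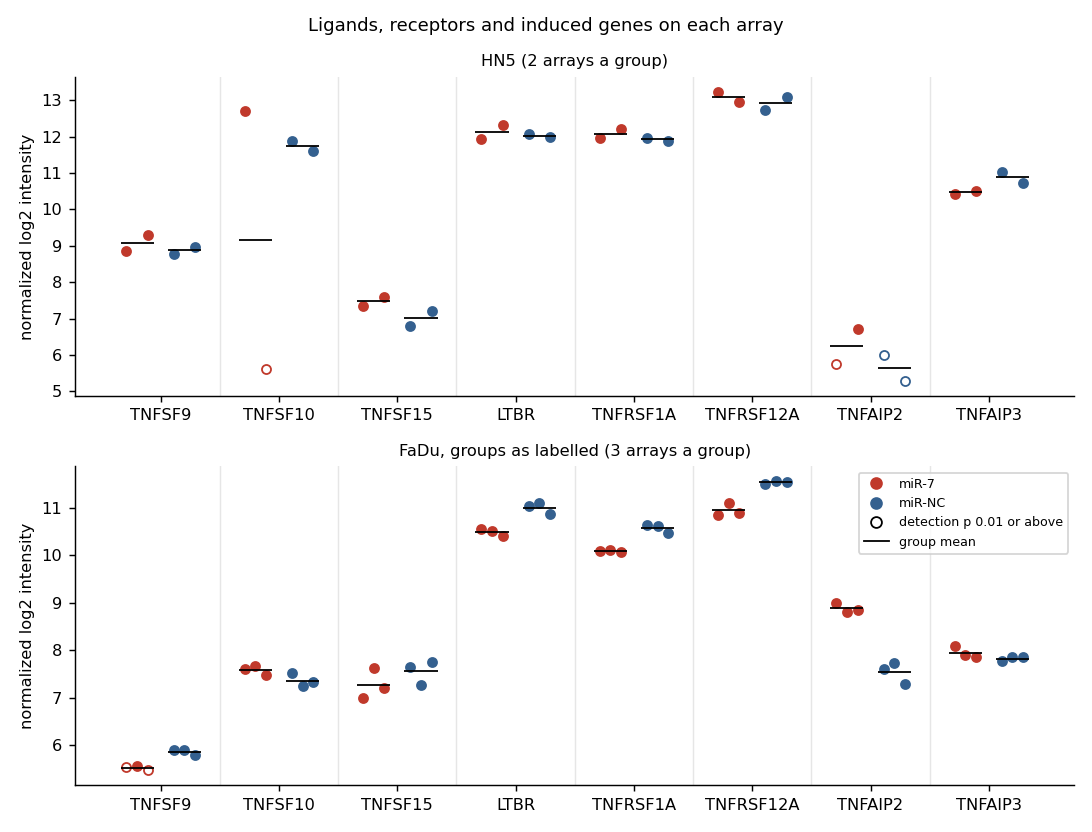
Normalized log2 intensity of 8 members on each array, HN5 above and FaDu below, miR-7 (red) left of miR-NC (blue), with the group mean as a line and open points where the detection p was 0.01 or above. In FaDu the 3 receptors lie lower and TNFAIP2 higher on all 3 arrays labelled miR-7, and in HN5 TNFSF10 is split between 12.72 and 5.60 with miR-7.

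Over the members, 8 of 10 passed the detection filter in each line, those left out being TNF and TNFAIP2 in HN5 and LTB and TNF in FaDu. In HN5, LTB being described only, 0 of the other 7 passed an adjusted p of 0.05 in either direction (limma), where 0.126% of all genes were lower and 0.178% higher. In FaDu, 4 of 8 (TNFRSF12A, LTBR, TNFRSF1A and TNFSF9) were lower on the arrays labelled miR-7 and 1 (TNFAIP2) was higher, where 21.8% of all genes were lower and 20.0% higher. Of these members, TNFSF9 entered the test only through the arrays labelled miR-NC, where it was higher, and its call depended on the processing. At an unadjusted p under 0.05, 537 genes were lower and 724 higher in HN5, and 0 of the same 7 members were among them.

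**Figure D4:**
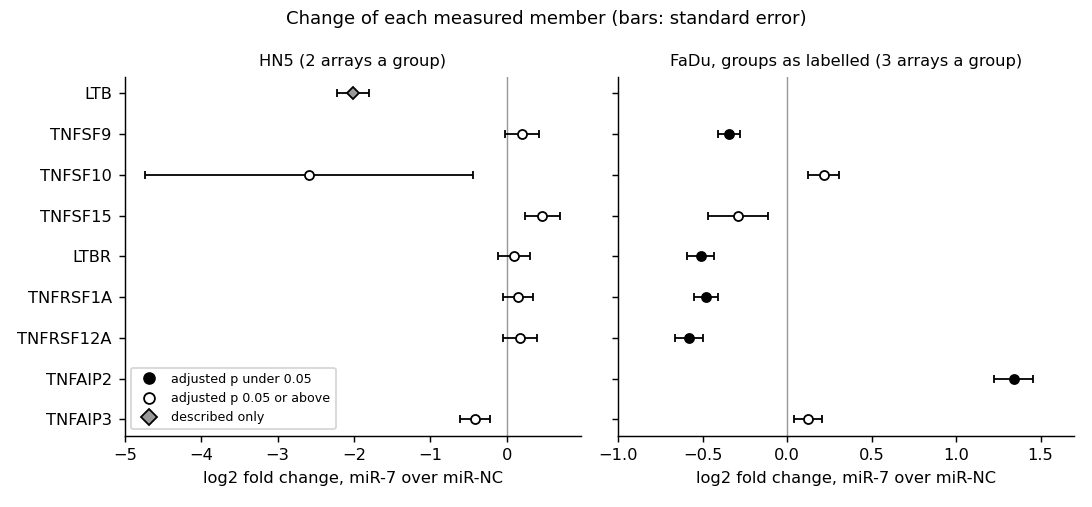
Log2 fold change, miR-7 over miR-NC, of each member tested, with its standard error as a bar, HN5 on the left and FaDu as labelled on the right (the horizontal scales differ). Filled circles passed an adjusted p of 0.05, and the diamond is LTB, which is described only. TNFSF10 in HN5 has the widest bar (2.15), and in FaDu the 3 receptors, TNFSF9 and TNFAIP2 are filled. TNFSF9 entered the FaDu test only through the arrays labelled miR-NC.

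The change in HN5 was set against that in FaDu as labelled, for each probe measured in both lines. For the receptors, HN5 minus FaDu was 0.61 for LTBR (95% interval 0.075 to 1.15, adjusted p = 0.12), 0.63 for TNFRSF1A (0.144 to 1.12, adjusted p = 0.0857) and 0.76 for TNFRSF12A (0.19 to 1.33, adjusted p = 0.0797). It was 0.76 for TNFSF15 (adjusted p = 0.104), 0.54 for TNFSF9 (adjusted p = 0.182) and -0.54 for TNFAIP3 (adjusted p = 0.142). For TNFSF10 it was -2.80 with a standard error of 2.20 (adjusted p = 0.432). No member passed, whereas 15.4% of the 10535 probes shared did. The size of the differences depended on single arrays. Without HN5 miR-7 replicate 1 that of LTBR was 0.802 and that of TNFSF10 -6.358, and without HN5 miR-7 replicate 2 they were 0.427 and 0.755. Without the FaDu array labelled miR-7 replicate 2, TNFSF15 passed (0.935, adjusted p = 0.049). The share of all shared probes passing without that array was not counted.

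Because the FaDu labels oppose the study in direction, the differences were also taken with the sign of every FaDu change turned. HN5 minus turned FaDu was -0.41 for LTBR, -0.33 for TNFRSF1A, -0.41 for TNFRSF12A, 0.18 for TNFSF15, -0.14 for TNFSF9, -0.29 for TNFAIP3 and -2.37 for TNFSF10, with adjusted p between 0.556 and 0.833. No member passed in that direction either, and 0.266% of the shared probes did.

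Further genes of the pathway were grouped by role, and a list is described by its counts and its median beside that of all genes (0.043 in HN5 and -0.029 in FaDu). The FaDu counts below are to be read against the 21.8% of all genes that were lower and the 20.0% that were higher on the arrays labelled miR-7. Of 18 TNF family ligands, 17 had a named probe and 7 were measured in each line. In HN5, LTB apart, 0 of 6 ligands passed. The BAFF gene TNFSF13B, a B cell survival factor, was at background on both miR-NC arrays and at least 1.88-fold higher with miR-7 (adjusted p = 0.155), and CD70, the ligand of CD27, had a log2 fold change of 0.62 (adjusted p = 0.394). In FaDu 2 of 7 ligands were lower, TNFSF9 and CD70, and CD70 changed by -0.98 on the log2 scale with a standard error of 0.0896. Both were detected on 1 of the 3 arrays labelled miR-7 and entered the test only through the arrays labelled miR-NC, where they were higher. Their p-values are therefore not given, and the count of 2 is not read as a result. TNFSF12, the ligand of TNFRSF12A, had a log2 fold change of -0.29 (adjusted p = 0.0906). The ligand median was 0.20 in HN5 and -0.29 in FaDu.

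Of 29 TNF family receptors, all with a named probe, 19 were detected on no array of each line, among them the TNFR2 gene TNFRSF1B, FAS and CD40. In HN5 0 of 10 measured receptors passed, TNFRSF14, the receptor of the lymphotoxin relative TNFSF14, having the smallest p (log2 fold change 0.92, adjusted p = 0.177), followed by EDAR, the ectodysplasin receptor (-0.58, adjusted p = 0.30), and TNFRSF10A (-0.22, adjusted p = 0.683). In FaDu 5 of 9 were lower and 0 higher on the arrays labelled miR-7: the 3 receptors above, TNFRSF10B (-0.43, adjusted p = 0.00238) and NGFR (-0.39, detected on 1 of the 3 arrays labelled miR-7). NGFR entered the test only through the arrays labelled miR-NC, where it was higher. The receptor median was -0.06 in HN5 and -0.39 in FaDu.

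In the proximal signalling list (adaptors, ubiquitin ligases, kinases and caspases next to the receptors), 0 of 21 genes passed in HN5, where CASP8, the initiator caspase of death receptors, had a log2 fold change of 0.84 (adjusted p = 0.196) with detection on 1 of the 2 miR-NC arrays. ADAM17 (0.55, adjusted p = 0.327) and the ubiquitin ligase genes RBCK1 (0.55, adjusted p = 0.342) and BIRC2 (0.46, adjusted p = 0.366) had the next smallest p. In FaDu 7 of 22 were lower and 2 higher, and the list median was 0.16 in HN5 and -0.14 in FaDu. CASP8, among the lower genes in FaDu, was detected on no array labelled miR-7. It entered that test only through the arrays labelled miR-NC. ADAM17, the protease that sheds TNF and several receptors, was lower by a log2 fold change of -0.52 (adjusted p = 0.000577), as were MAP3K14, the LTBR kinase (-0.44, adjusted p = 0.00353), and MAP3K7, a kinase of TNF signalling (-0.34, adjusted p = 0.0031). TNIP1, a partner of TNFAIP3, was higher (0.38, adjusted p = 0.0153).

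All 12 genes of the NF-κB core were measured in both lines. In HN5 0 of 12 passed and the median was -0.42, with RELA, the main TNF-activated subunit, at -1.18 (adjusted p = 0.14), NFKB1 at -0.64 (adjusted p = 0.281), REL at -0.58 (adjusted p = 0.394) and RELB, the subunit downstream of LTBR, at -0.80 (adjusted p = 0.419). In FaDu 6 of 12 were higher and 1 lower on the arrays labelled miR-7, and the median of the list was 0.28. RELA rose by 1.08 (adjusted p = 0.000108), the coactivator BCL3 by 1.09 (adjusted p = 7.31e-05) and the inhibitor NFKBIA by 0.49 (adjusted p = 0.00165), all on the log2 scale. RELB, 1 of the 6, had a log2 fold change of 0.80 and was detected on 1 of the 3 arrays labelled miR-NC. It entered the test only through those labelled miR-7, where it was higher, so its p is not given.

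Among 24 TNF-induced genes, 13 were measured in HN5 and 15 in FaDu. The list median was -0.40 in HN5 and 0.20 in FaDu. In HN5 0 of 13 passed, and the genes with the smallest p lay on both sides of zero: the T cell chemokine CCL5 at a log2 fold change of 1.94 (adjusted p = 0.0718), the interferon-responsive chemokine CXCL10 at 1.52 (adjusted p = 0.124), the neutrophil chemokine CXCL8 at -1.13 (adjusted p = 0.0959) and TNFAIP1 at -0.85 (adjusted p = 0.214). In FaDu 4 of 15 were lower and 6 higher. RELB, NFKBIA and NFKB2, which are also in the NF-κB core list, were among the 6, so the lists are not separate groups of genes. RELB entered that test only through the arrays labelled miR-7, where it was higher. CCL5 was lower on the arrays labelled miR-7 (-0.70, adjusted p = 0.000173), as were CXCL8 (-0.64, adjusted p = 0.000212) and the stress-response gene IER3 (-0.52, adjusted p = 0.000906), while TNFAIP2 was the highest of the list.

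Without HN5 miR-7 replicate 2, the array that stood apart, more genes passed in HN5: 3.21% of all genes lower and 2.67% higher. The lone miR-7 array is then taken to vary as the other group does. Of the NF-κB core 2 of 12 were then lower, RELA (-1.42) and RELB (-1.33), and of the TNF-induced genes 3 of 13 were lower (CXCL8, RELB and CXCL1, the last at background on both miR-7 arrays) and 2 higher (CCL5 and CXCL10). Among the members other than LTB, TNFSF10 alone passed. Leaving out miR-7 replicate 1 in its place also gave more calls, with 9.01% of all genes lower and 8.92% higher. The NF-κB core then had 5 of 12 lower, and the TNF-induced genes had 4 of 13 lower and 3 higher.

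**Figure D5:**
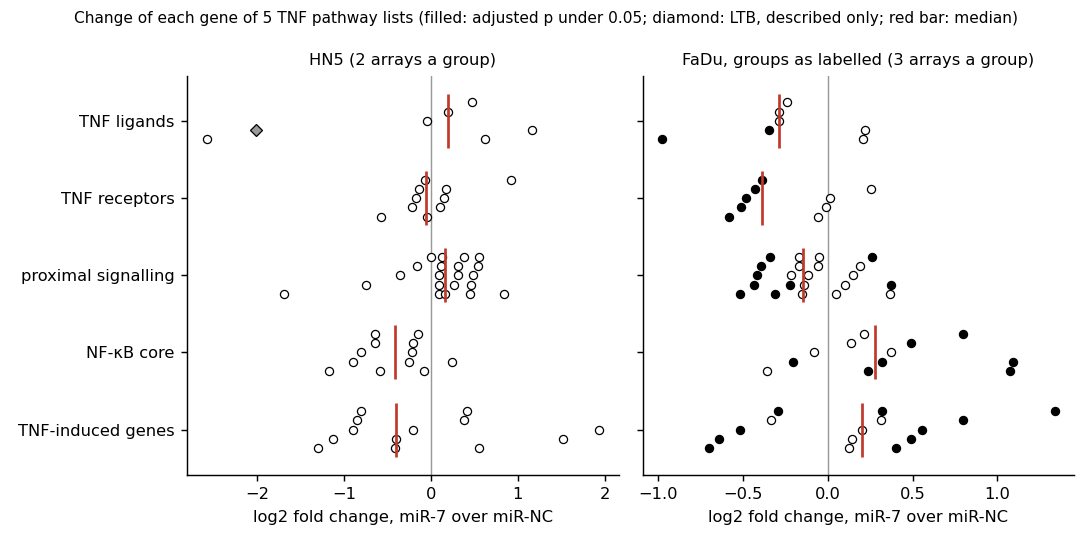
Log2 fold change, miR-7 over miR-NC, of each measured gene of 5 lists (TNF ligands, TNF receptors, proximal signalling, NF-κB core and TNF-induced genes), HN5 on the left and FaDu as labelled on the right, filled where the adjusted p was under 0.05, with the list median as a red bar and LTB as a diamond. No circle is filled in HN5, and in FaDu the receptors that are filled all lie left of zero while 6 of 7 filled NF-κB core genes lie right of it. Of the filled FaDu genes, TNFSF9, CD70, NGFR, CASP8 and RELB entered the test only through the group where they were higher.

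Markers of other cell types were read beside these groups. In FaDu 6 of 7 squamous epithelial markers were higher on the arrays labelled miR-7, with a summed normalized intensity of 11800 to 12600 on those arrays and 9560 to 10000 on those labelled miR-NC. The remaining marker, CDH1, lay the other way, with a log2 fold change of -0.21, and did not pass. Of 4 endothelial markers, KDR and PECAM1 were detected on no FaDu array, and CDH5 was higher (0.49, adjusted p = 0.00332). VWF, at background on all 3 arrays labelled miR-NC, was at least 1.32-fold higher. It entered the test only through the arrays labelled miR-7, so its p is not given. In HN5 the sum of the squamous markers was 101000 on each miR-7 array and 113000 to 121000 on the miR-NC arrays, and 0 of 7 passed. Of 5 fibroblast markers 3 were measured in HN5 and 0 passed. COL1A1 had a log2 fold change of 0.36 and COL3A1 of -0.50, and LUM, at background with miR-7, was at least 1.19-fold lower. The endothelial gene PECAM1 stood at 0.31 in HN5 and did not pass. No fibroblast marker was detected in FaDu. The sum of the 11 leukocyte markers was 971 to 1050 with miR-7 and 888 to 906 with miR-NC in HN5, and it was 689 to 745 on the FaDu arrays labelled miR-7 and 835 to 854 on those labelled miR-NC, sums made up mostly of CD14 and of background signal, since CD14 was the 1 marker tested in each line (-0.39 in FaDu, adjusted p = 0.00604). The part of these shifts in the values above was not tested.

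The HN5 genes whose pattern over the 4 arrays was most like that of LTB were TSPAN5, UBE2J1, SNORD30, IKBKE and TRMT6, with Pearson correlations of 0.9996 to 0.9991. A correlation over 4 arrays in 2 groups rests on few values, and 60 of 9548 genes were over 0.99. LTB was at background on 2 of these arrays, and the likeness to it fixes the direction of the 5 genes, whose changes are therefore not given.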

How the data were processed

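The members, the gene lists and the named genes were chosen with earlier results of these data known. RNA of 10 cultures was hybridised, and the authors deposited the scanner intensity of each probe with no background correction or normalization, together with a detection p-value held as 1 minus p. The deposited log2 values, which the authors made with lumi (variance stabilization, R 2.11.0) and Partek (quantiles), do not follow the identifiers beside them. They were put back in probe order, in which 1 line of the HN5 table is lacking, and used as an alternative only.

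Probes were named through the platform annotation: 27577 of 48802 HN5 and 30112 of 47230 FaDu probes had 1 gene, 13 and 8 had several, and 21212 and 17110 had none. Background was estimated from the detection p-values and removed, 16 was added as an offset, and arrays were quantile-normalized within each line (limma 3.58.1, R 4.3.3). A gene was tested through its brightest probe if all arrays of 1 group or both had a detection p under 0.01 there, with lmFit and eBayes and Benjamini-Hochberg adjustment over all genes of the line. Differences between the lines combined the moderated standard errors of both fits (Welch-Satterthwaite approximation), two-sided, adjusted over 10535 probes. The number of arrays limits the precision. The procedure was tested on simulated data with the same spread for every gene of a line. No simulated array stood apart from its group, as an array did in HN5, so that case was not covered.

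Named are all members, the 4 genes of each of 5 pathway lists with the smallest p in each line, and the 5 genes most like LTB. NGFR, CFLAR, CXCL1, NFKB2, RELB in the reduced set, undetected receptors and the marker genes were named after their values were seen. Promoters and the miRNA were read from RefSeq tables. Python 3.11.15, pandas 2.3.3, SciPy 1.17.1 and Matplotlib 3.10.9 were used.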

Additional observations from a re-analysis of the deposited data

How the results depend on the processing

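The alternatives were no background correction, an offset of 50, median scaling, the authors' log2 values, other detection filters or none, every probe tested, the methods' t-test, a robust variance prior, a mean-variance trend, a replicate block and leaving out each array. Under all 18 the FaDu log2 fold changes of TNFAIP2 (0.81 to 1.44), LTBR (-0.58 to -0.47), TNFRSF1A (-0.53 to -0.44) and TNFRSF12A (-0.66 to -0.53) kept direction and call. With every array kept, the count of members called changed by no more than 1.5 times in either line. Leaving out 1 array at a time, 0 to 1 HN5 members other than LTB were lower and 0 to 1 higher, and 1 to 2 FaDu members were higher as labelled. In HN5 median scaling moved the median of all genes by -0.19, and turned LTBR (-0.056), TNFRSF1A (-0.012) and TNFSF9 (-0.032) to the other side of zero. Leaving out HN5 miR-7 replicate 2 turned LTBR, TNFSF9 and TNFSF10, whose values without 1 array ranged over -0.085 to 0.289, -0.019 to 0.419 and -6.14 to 0.97, the other ends being without HN5 miR-7 replicate 1. LTB and TNFSF10 had no value in HN5 when detection on every array was asked for, nor had TNFSF9 in FaDu. The difference between the lines passed for 1 member on the authors' values (TNFRSF1A, 0.59, adjusted p = 0.0438), and for 0 to 5 members when 1 array was left out: 5 without HN5 miR-7 replicate 1, 2 without HN5 miR-7 replicate 2 and 1 without the FaDu array labelled miR-7 replicate 2. For the authors' values and for each array left out, the share of all shared probes passing was not counted. Leaving out either HN5 miR-7 array leaves a lone miR-7 array, and calls over all HN5 genes also rose, as given above. These member counts are therefore not read as a result. The TNFSF10 difference ranged over -6.36 to 0.76, without HN5 miR-7 replicate 1 and without replicate 2. With the FaDu signs turned, an alternative added after seeing the data, the differences of LTBR (-0.411), TNFRSF1A (-0.332), TNFRSF12A (-0.405) and TNFSF9 (-0.145) changed sign and 0 members passed. The causes were not tested beyond fewer arrays. Deviations of same-numbered arrays were hardly correlated (0.001 in HN5 and -0.026 to 0.054 in FaDu), which does not exclude pairing. In HN5, with 2 arrays a group, both replicates give the same value by construction. With the replicate block 0 members other than LTB were called in HN5 and 4 lower and 1 higher in FaDu. Over all genes 1 lower and 10 higher then passed in HN5, against 12 and 17 without the block. Members at background, LTB and TNF above all, have no measured level below the detection limit.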
